A study of Mus musculus with 8 samples.

Results

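Kinesins are motor proteins that walk along microtubules. The kinesin genes were taken as every row of the count table whose symbol is Kif followed by a number and at most 1 letter from a to c, or Kifc followed by 1 digit. This gave 41 of the 34299 genes. They were measured by RNA-seq of polyadenylated RNA in whole mouse brain, in 3 groups. Fetal brain at gestation day 15 gave 3 wild-type (WT) and 3 Cav1 KO (knockout) libraries, and aging brain at week 70 gave 2 libraries, both Cav1 KO. Cav1 encodes caveolin 1, the main protein of caveolae. The strain, the sex, the way the knockout was made and any treatment are not given in the sources used here, and WT brain at week 70 was not analysed here, so that age could be compared only within the knockout.

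In dividing cells, mitotic kinesins build the spindle, move and align chromosomes and complete cytokinesis. In neurons, which no longer divide, another set of kinesins carries vesicle precursors, mitochondria and other cargo from the cell body along the axon, while dynein carries cargo back. A further set works in cilia. The fetal brain at mid-gestation holds both dividing progenitors and young neurons, and the adult brain holds few dividing cells. The kinesin genes were sorted by these known roles into 12 mitotic genes, 10 axonal transport genes, 7 genes of cilia and 12 others.

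The transcripts of many mitotic genes are known to be controlled by a promoter element with the letters TTTGAA, the cell cycle genes homology region, which often lies close to the transcription start and downstream of CCAAT boxes. RefSeq promoters on GRCm38.p6, each 300 bases long (250 before the start and 50 after it), matched 31 of the 41 kinesin genes. The other 10 were Kif13b, Kif19a, Kif19b, Kif20a, Kif21b, Kif28, Kif5a, Kif5b, Kifc2 and Kifc3. On either strand, TTTGAA was present in at least 1 promoter of 10 of 11 mitotic genes, 1 of 7 axonal transport genes (Kif1a, at its downstream start), 1 of 6 genes of cilia and 1 of 7 others, against 17.9% of all 32851 promoters in the table and 20.2% of all genes. CCAAT, a motif that can share letters with TTTGAA only at their ends, was present in 7 of 11 mitotic genes, 3 of 7 axonal transport genes, 3 of 6 genes of cilia and 1 of 7 others, against 37.4% of all promoters and 41.1% of all genes. The 80 bases before and 20 bases after the most upstream start are shown for 8 mitotic and 3 axonal transport genes. This sets promoters with and without these letters side by side. The mitotic genes Kif14, Kif2c and Kif4 have a promoter too but are not shown. Their only TTTGAA match lies upstream of the bases shown in Kif14 and Kif2c, and runs past their downstream end in Kif4. The mitotic genes shown therefore overstate how often the match lies within these bases in the class. The axonal transport genes shown, Kif1a, Kif5c and Kif3c, ranked 2 to 4 in their class by adjusted p between the genotypes. Kif1b, which ranked 1, had 2 CCAAT matches at each start, and Kif3a and Kif3b had 1 each. Those genes are not shown. Capitals mark TTTGAA or its reverse complement TTCAAA, and CCAAT or its reverse complement ATTGG. Each is written 5′ to 3′ on the strand of its gene.
Kif11 (chr19:37376302-37376401, plus strand): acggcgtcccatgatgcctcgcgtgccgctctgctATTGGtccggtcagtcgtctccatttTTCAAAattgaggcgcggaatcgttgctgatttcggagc
Kif15 (chr9:122951001-122951100, plus strand): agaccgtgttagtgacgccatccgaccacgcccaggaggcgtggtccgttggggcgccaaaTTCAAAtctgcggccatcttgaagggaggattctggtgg
Kif22 (chr7:127042401-127042500, minus strand): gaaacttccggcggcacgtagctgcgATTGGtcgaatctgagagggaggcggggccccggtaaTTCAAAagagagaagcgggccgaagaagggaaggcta
Kif23 (chr9:61946780-61946879, minus strand): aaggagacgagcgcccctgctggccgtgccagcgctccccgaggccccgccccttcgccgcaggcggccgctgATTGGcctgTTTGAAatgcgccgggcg
Kif18b (chr11:102925105-102925204, minus strand): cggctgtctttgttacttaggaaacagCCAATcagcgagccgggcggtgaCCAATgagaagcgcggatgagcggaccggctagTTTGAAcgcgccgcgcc
Kifc1 (chr17:33890614-33890713, minus strand): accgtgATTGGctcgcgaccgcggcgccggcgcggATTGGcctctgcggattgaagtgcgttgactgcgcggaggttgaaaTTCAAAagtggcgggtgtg
Kif20b (chr19:34922278-34922377, plus strand): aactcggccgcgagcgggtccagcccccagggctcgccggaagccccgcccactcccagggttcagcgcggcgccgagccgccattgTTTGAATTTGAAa
Kif18a (chr2:109280658-109280757, plus strand): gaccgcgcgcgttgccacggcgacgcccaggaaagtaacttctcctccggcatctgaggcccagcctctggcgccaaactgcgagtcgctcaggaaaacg
Kif1a (chr1:93101855-93101954, minus strand): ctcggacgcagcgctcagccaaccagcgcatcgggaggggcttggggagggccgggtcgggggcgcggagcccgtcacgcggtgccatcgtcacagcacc
Kif5c (chr2:49619206-49619305, plus strand): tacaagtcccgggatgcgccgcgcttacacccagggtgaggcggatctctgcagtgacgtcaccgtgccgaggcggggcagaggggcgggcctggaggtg
Kif3c (chr12:3365052-3365151, plus strand): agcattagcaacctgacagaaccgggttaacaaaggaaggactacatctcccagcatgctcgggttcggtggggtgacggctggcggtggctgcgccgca

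Kif18a is the mitotic gene with a promoter in the table and no TTTGAA in its 300 bases. A match describes these letters and does not show that a factor binds there.

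Total counts ranged from 14110031 to 20833397 per library, and each of the KO day 15 libraries was shallower than each WT library. The labels name neither a batch nor a litter, so that genotype and any batch cannot be told apart. Cav1 itself had 218 to 367 counts in the WT libraries and 0 to 5 in the 5 KO libraries. The defining genes of neurons were present in all libraries. The summed level of 5 immature neuron markers was 5479 to 6072 in WT and 4067 to 4099 in KO at day 15, in CPM (counts relative to the scaled library total). These markers were split in the test of genotype described below, where Stmn2 and Neurod6 rose and Tubb3 and Sox11 fell in KO. The summed level of 7 mature neuron markers was 13651 to 14567 CPM at week 70. Fibroblast markers summed to between 285 and 4466 CPM in the WT libraries and to between 51.6 and 121 CPM in KO day 15. Of these 5 markers, the 3 collagens Col1a1, Col1a2 and Col3a1 were called lower in KO, and Dcn and Lum were not. Mean levels in WT and KO day 15 were 25.7 and 27.1 CPM for Dcn, and 21.1 and 13.3 CPM for Lum. Erythroid markers summed to 975 to 1258 CPM in WT and 3518 to 4347 CPM in KO day 15. The labels call the fetal samples biological replicates. Nothing says this of the week 70 pair, so that p-values by age measure the spread between these samples, which may be technical.

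Kinesin transcripts took 0.593 to 0.618% of the counts in fetal WT brain, 0.337 to 0.361% in fetal KO brain and 1.17 to 1.39% in aged KO brain, and the 3 groups did not overlap. Levels of different genes are compared here as CPM per kilobase of merged exons, scaled by TMM over all 8 libraries. In WT day 15 the highest levels per kilobase were those of Kif5c, a heavy chain of conventional kinesin, at 113 ± 6.23, Kif1a, which carries synaptic vesicle precursors, at 91.8 ± 5.35, and Kif21b, a neuronal motor that also limits microtubule growth, at 81.0 ± 3.48 (SD, n = 3). The highest level of a mitotic gene was 10.6 ± 1.38 CPM per kilobase, for Kif11, the motor that pushes the spindle poles apart. In KO day 15 Kif5c led again at 51.7 ± 5.05 CPM per kilobase, followed by Kif3a at 46.6 ± 1.47 and Kif21a at 30.6 ± 1.07 (SD, n = 3). The level of Kif1a per kilobase, 30.5 ± 3.11, was within the spread of that of Kif21a. At week 70 Kif5a stood first at 1252 ± 245 CPM per kilobase, and Kif5c (253 ± 35.6), Kifc2 (236 ± 13.9) and Kif1a (196 ± 1.20) came next (SD, n = 2). No mitotic gene exceeded 0.655 CPM per kilobase there, the level of Kifc1.

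**Figure D1:**
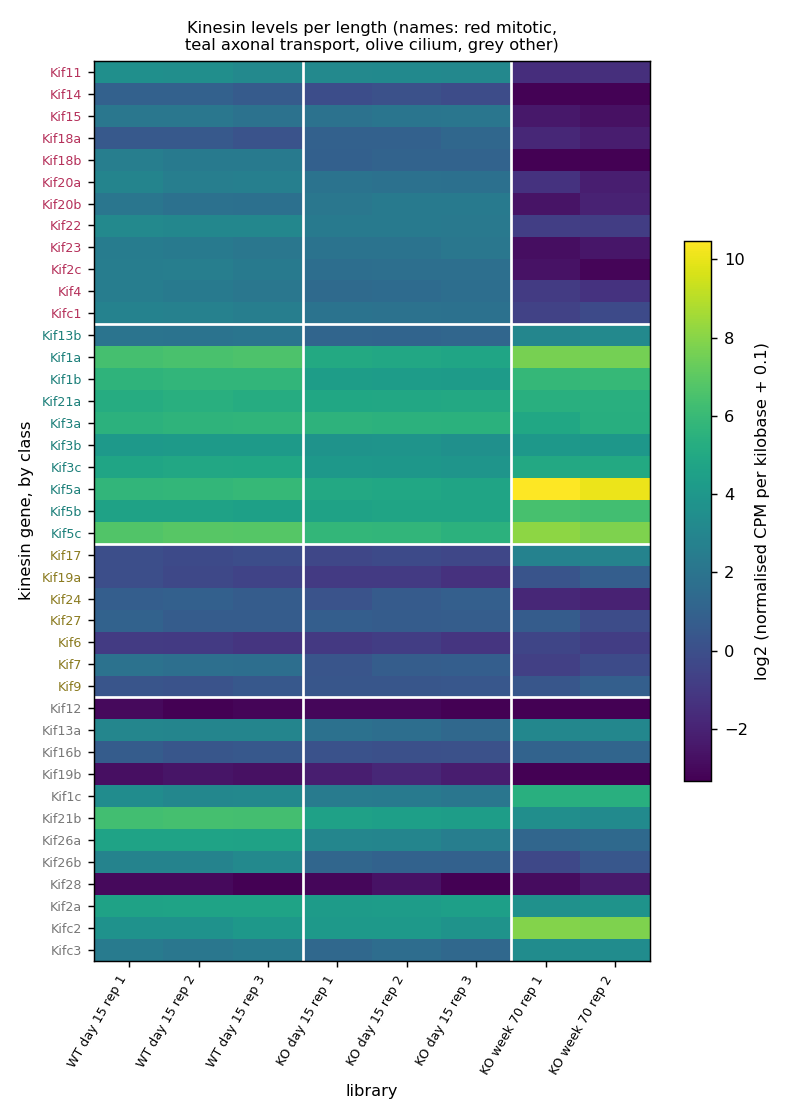
Levels of the 41 kinesin genes (rows, by class) in the 8 libraries (columns), as log2 of normalised CPM per kilobase plus 0.1, with yellow for high and dark blue for low levels. The mitotic genes are dark in both week 70 libraries, where Kif5a is the brightest gene.

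Genotype was compared at day 15 with edgeR's quasi-likelihood test over 19147 genes (two-sided, Benjamini-Hochberg adjusted p, threshold 0.05). The test covered 38 of the 41 kinesin genes. In KO, 25 of them were called lower and 3 higher, and 10 did not pass. Over all genes tested, 62.6% were called, 32.5% lower and 30.1% higher, so that 48.1% of the calls were higher. With upper-quartile scaling that share was 60.8%, and the median over all genes moved from 0.03 to 0.20. The median log2 fold change was -0.73 over the 38 kinesin genes. Log2 fold changes are scaled within each comparison and lie 0.09 above the ratio of the levels printed here for genotype and 0.10 below it for age. Counted by CPM alone, 26 of the 38 had all KO libraries below all WT libraries and 2 had them above, where 38.7% and 29.7% of all genes tested did. In bulk tissue, fewer cells of a type and less RNA per cell cannot be told apart.

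Of the 12 mitotic kinesins, 7 fell in KO at day 15, 2 rose and 3 did not pass, with a median log2 fold change of -0.72. Those that fell were Kif18b, Kif14, Kif20a, Kifc1, Kif2c, Kif4 and Kif22. Kif18b, which shortens astral microtubules, was counted 446, 347 and 351 times in WT, against 105, 128 and 124 times in KO. No KO library reached a WT library in CPM, and the log2 fold change was -1.39 (SE 0.119, adjusted p 2.82e-06 by edgeR), a 2.62-fold lower level. Kif22, a motor on chromosome arms, was counted 913, 803 and 785 times in WT, against 399, 453 and 401 times in KO, which gave a log2 fold change of -0.71 (SE 0.0711, adjusted p 9.16e-06 by edgeR). Kif20a, needed for cytokinesis, had 669, 505 and 512 counts against 267, 273 and 252, and its log2 fold change was -0.80 (SE 0.102, adjusted p 5.58e-05 by edgeR). Their groups did not overlap in CPM either. Kifc1, which bundles microtubules at spindle poles, was counted 488, 442 and 394 times in WT, against 216, 225 and 206 times in KO, a log2 fold change of -0.75 (SE 0.0966, adjusted p 6.39e-05 by edgeR). It has the close copy Kifc5b, and reads may be split between them. The log2 fold changes were -0.87 for Kif14, another motor of cytokinesis, -0.73 for Kif2c, which corrects attachments at kinetochores, and -0.73 for Kif4, a motor on chromosomes (edgeR adjusted p 0.000221, 0.000103 and 0.000345).

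Both mitotic kinesins that rose have transcripts of low GC content. Kif18a, which aligns chromosomes at the spindle equator, was counted 278, 259 and 206 times in WT, against 310, 326 and 411 times in the shallower KO libraries. Every KO library was above every WT library in CPM, with a log2 fold change of 0.78 (SE 0.137, adjusted p 0.000555 by edgeR). Kif20b, which acts at the midbody, had 617, 466 and 443 counts against 501, 631 and 625, and its log2 fold change was 0.49 (SE 0.110, adjusted p 0.00267 by edgeR). The GC content of their longest transcripts was 38.2% and 39.4%. Those 2, Kif2a (38.6%) and Kif5b (41.1%) had the lowest GC content of the 38 kinesin genes tested.

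Kif11, Kif15 and Kif23 did not pass at day 15. Kif11 was counted 1807, 1634 and 1305 times in WT, against 1117, 1229 and 1132 times in KO, which gave a log2 fold change of -0.16 (SE 0.0864, adjusted p 0.129 by edgeR), and the groups overlapped in CPM. With upper-quartile scaling it was 0.01. Without WT replicate 3, which held its lowest WT value, edgeR called Kif11 at -0.28 (adjusted p 0.00386), and with no filter at -0.25 (adjusted p 0.0159). Kif15, a second motor for spindle poles, had 989, 923 and 757 counts against 660, 790 and 813, and a log2 fold change of 0.05 (SE 0.0933, adjusted p 0.671 by edgeR), which was -0.05 without WT replicate 3 and -0.01 without KO replicate 3. Kif23, a subunit of centralspindlin in cytokinesis, had 890, 794 and 667 counts against 498, 524 and 600. Its log2 fold change of -0.25 narrowly missed the threshold (SE 0.0996, adjusted p 0.0511 by edgeR). It was called with RLE scaling (-0.25, edgeR adjusted p 0.0472), with no filter (-0.34, edgeR adjusted p 0.0062) and by DESeq2 (-0.25, adjusted p 0.0467). Leaving out a library, edgeR called it without WT replicate 3 (-0.34, adjusted p 0.0112) and without KO replicate 3 (-0.33, adjusted p 0.0201).

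Other genes of dividing cells moved at day 15 beside the mitotic kinesins. Of 14 partners of the spindle and midbody, 11 fell and 0 rose in edgeR, with a median log2 fold change of -0.71. The 3 with the smallest adjusted p were Numa1, which anchors dynein at spindle poles (-0.96), Incenp of the chromosomal passenger complex (-1.20) and Tpx2, an activator of Aurora A (-1.09). With length and GC corrected they were at 0.02 (Numa1, not called), -0.70 and -0.88, and 11 of the 14 genes were called lower and 0 higher, not all of them those called as counted. Of 6 markers of cycling cells, 3 fell and 2 rose, and their summed level was 535 to 673 CPM in WT and 388 to 395 CPM in KO. Of 8 progenitor markers, 7 fell and 1 rose, with sums of 1470 to 1520 CPM in WT and 1181 to 1279 CPM in KO. The marker that rose was Fabp7, from 287 ± 31.9 to 775 ± 37.6 CPM (SD, n = 3 each), which is a large part of the KO sums. With length and GC corrected, 5 of the 8 fell and 1 rose. All 4 markers of intermediate progenitors fell, from sums of 379 to 440 CPM to sums of 147 to 163 CPM. No gene of these lists was at 0 throughout a group. The part of cell composition in the values of the mitotic kinesins was not tested.

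Of the 10 axonal transport kinesins, 8 fell in KO at day 15, 1 rose and 1 did not pass, with a median log2 fold change of -0.79. Kif1a and Kif1b, both carriers of synaptic vesicle precursors, and Kif5c were lowest. Kif1a was counted 16880, 16886 and 17572 times in WT, against 5224, 5177 and 4471 times in KO. The CPM values lay far apart, and the log2 fold change was -1.50 (SE 0.0803, adjusted p 1.10e-07 by edgeR), a 2.84-fold lower level. Kif1b had 18881, 18725 and 18809 counts against 6043, 6252 and 5917, with a log2 fold change of -1.35 (SE 0.0605, adjusted p 4.20e-08 by edgeR). Kif5c had 15795, 16317 and 16060 counts against 6639, 6906 and 5770, and a log2 fold change of -1.04 (SE 0.0782, adjusted p 1.15e-06 by edgeR). In both genes the replicates of a group differed by much less than the groups did. Kif3c, a partner of Kif3a in a heterodimeric motor, had 4312, 4414 and 4243 counts against 2054, 2093 and 1906, a log2 fold change of -0.82 (SE 0.0657, adjusted p 1.84e-06 by edgeR).

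Of the remaining axonal transport genes, 4 fell. Kif5a and Kif13b, a motor bound by membrane scaffolds, fell with log2 fold changes of -0.87 and -0.76 (edgeR adjusted p 2.23e-06 and 4.17e-06). Kif3b and Kif21a fell by 0.37 and by 0.25 on the log2 scale (edgeR adjusted p 0.000616 and 0.0077), and the call for Kif21a was lost with upper-quartile scaling (-0.07). Kif3a, the common subunit of the heterodimeric motors, stood at 178 ± 8.26 CPM in fetal WT brain against 167 ± 5.28 CPM in fetal KO brain (SD over 3 libraries), and its groups overlapped (edgeR SE of the log2 fold change 0.0599, adjusted p 0.979). With upper-quartile scaling Kif3a was called higher at 0.17 (edgeR adjusted p 0.0225). Kif5b, the conventional kinesin found in most cell types, was counted 4087, 3888 and 3581 times in WT, against 3306, 3795 and 3718 times in KO. Its log2 fold change of 0.19 passed in edgeR (SE 0.0615, adjusted p 0.0204) although the groups overlapped in CPM scaled over all 8 libraries, and the call was lost without WT replicate 3 (0.15, adjusted p 0.107) or without KO replicate 2 (0.17, adjusted p 0.0702). It was lost with no filter (0.10) and with all 8 libraries in 1 fit (0.15) as well. Beside these genes, 5 of 7 mature neuron markers fell and 1 rose in KO at day 15, with a median log2 fold change of -0.73. With length and GC corrected, 3 of the 7 fell and 0 rose, with a median of -0.08. The part of cell composition in the axonal transport values at day 15 was not tested.

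**Figure D2:**
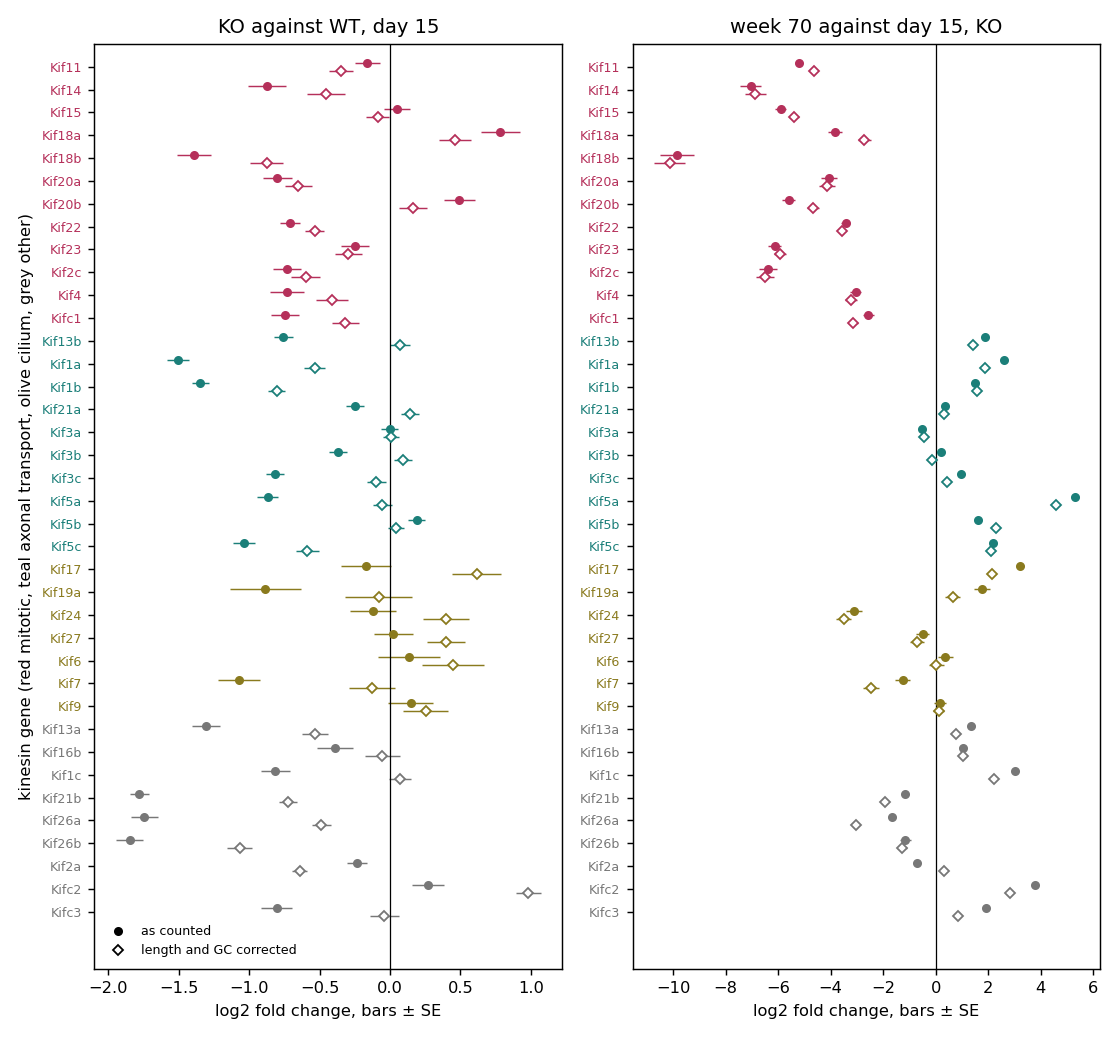
Log2 fold changes of the 38 tested kinesin genes between KO and WT at day 15 (left) and between week 70 and day 15 in KO (right), with bars of 1 SE. Filled circles are the values as counted and open diamonds those with length and GC corrected. In the left panel most teal diamonds lie near 0, and in the right panel every red symbol lies below -2. The value of Kif18b at week 70, where it had 0 counts, depends on the prior count. Both comparisons share the KO day 15 libraries.

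The fold changes between the genotypes moved with the GC content of the transcripts, and with their length. Across the 38 kinesin genes, which are not independent replicates and share their libraries, Spearman's rho between the log2 fold change and GC content was -0.54, beside -0.48 over 19050 genes. The rho with transcript length was -0.46, beside -0.37 over all genes. The median GC content was 47.3% for the mitotic and 48.7% for the axonal transport genes, and the median length of the longest transcript was 4246.5 and 6615 bases. The 25 kinesin genes called lower had a median GC content of 52.5%, and the 3 called higher one of 39.4%.

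A fit in which each library's trend on length and GC content was entered as an offset gave another picture of the 2 classes. Of the axonal transport kinesins, 3 fell (Kif1a, Kif1b and Kif5c) and 0 rose, with a median log2 fold change of -0.02. Of the mitotic kinesins, 9 fell and 1 rose, with a median of -0.38. Over all genes in this edgeR fit, 51.0% were called, with 25.4% lower and 25.6% higher, with a median of 0.02. The values for the 3 axonal transport genes were -0.53 for Kif1a, -0.80 for Kif1b and -0.59 for Kif5c (edgeR adjusted p 0.000141, 1.98e-06 and 0.000155). Kif5a (-0.06), Kif3c (-0.10), Kif13b (0.07), Kif3b (0.10) and Kif21a (0.15) did not pass. Among mitotic genes Kif11 and Kif23 joined the 7 that fell, at -0.35 and -0.30 (edgeR adjusted p 0.00595 and 0.0224), Kif18a stayed higher at 0.46 and Kif20b did not pass (0.16). Of the 28 kinesin genes called as counted, 16 were called in the corrected fit as well, and all 16 had the same direction. After correction the rho with transcript length was -0.25 over the 38 kinesin genes, beside -0.01 over all genes.

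**Figure D3:**
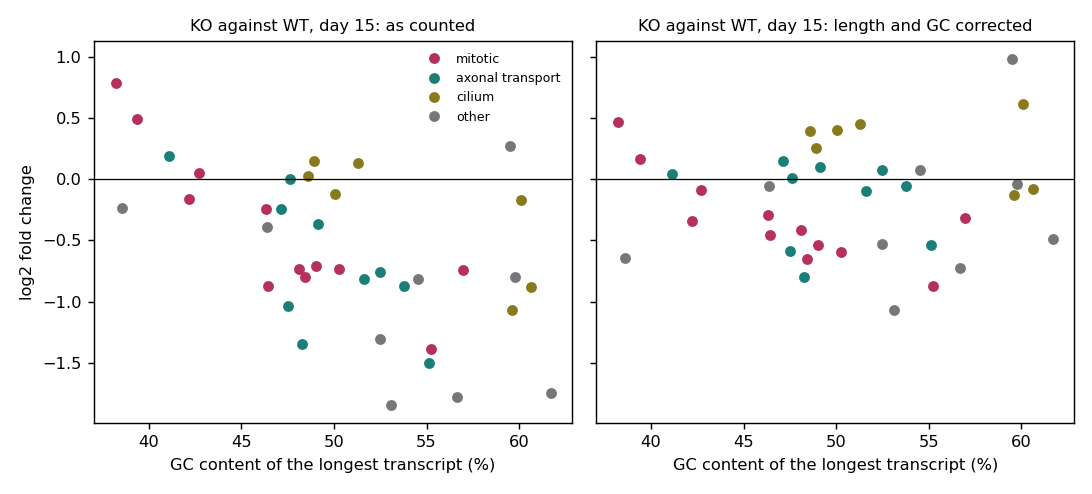
Log2 fold change between KO and WT at day 15 against the GC content of the longest transcript for the 38 tested kinesin genes, coloured by class, as counted (left) and with length and GC corrected (right). As counted, values decline with GC content (rho -0.54). The correction takes out the trend on GC content by its design, and the rho after it was -0.04.

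Within a library, where scaling cancels, mitotic genes held 5.49 to 7.04% of kinesin CPM in fetal WT and 9.20 to 10.6% in fetal KO brain. The share of the axonal transport genes was higher in KO too, at 67.1 to 68.2% against 64.6 to 66.5% in WT. The summed level of the other kinesins went from 1660 ± 40.1 CPM in fetal WT to 623 ± 35.0 CPM in fetal KO (SD over 3 libraries). The log2 ratio of the summed CPM of the 12 mitotic to that of the 10 axonal transport genes was -3.20, -3.39 and -3.60 in fetal WT brain, against -2.89, -2.79 and -2.66 in fetal KO brain. At week 70 it was -10.21 and -10.08. The 3 groups did not overlap. The ratio counts reads, so that long transcripts weigh more, and only its differences between libraries are read here. The mean ratio of fetal KO exceeded that of fetal WT by 0.62, and the difference of aged from fetal KO was -7.37. With each gene weighed equally on the log2 scale, the difference between the genotypes was 0.28. The summed mitotic level went from 380 ± 38.3 CPM in fetal WT to 291 ± 9.67 CPM in fetal KO, and the summed axonal transport level from 3990 ± 167 to 1997 ± 98.0 CPM (SD over 3 libraries). The ratio was not corrected for length and GC content. Per gene, the median log2 fold changes as counted were -0.72 for mitotic and -0.79 for axonal transport genes. In the corrected fit they were -0.38 and -0.02, with the mitotic genes the lower.

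**Figure D4:**
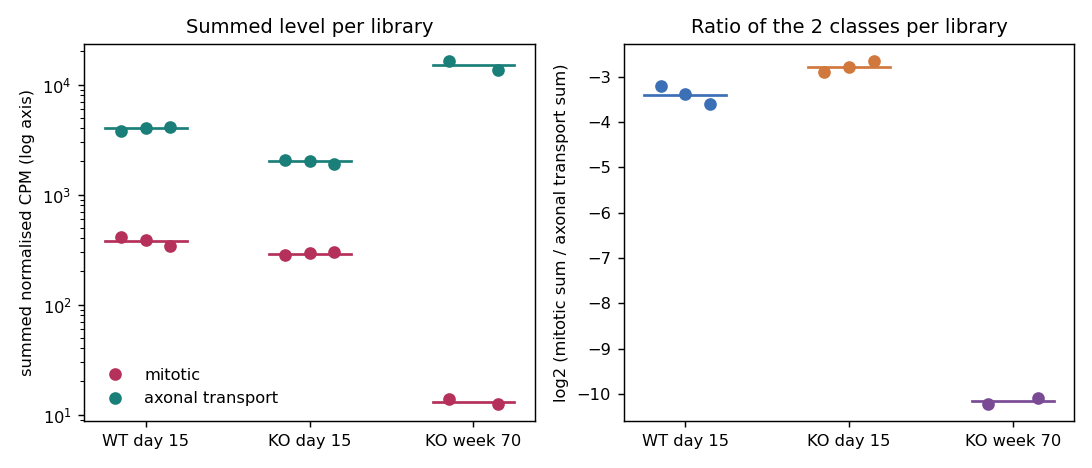
Left, the summed normalised CPM of the 12 mitotic and 10 axonal transport kinesins in each library (points) with the group mean (line), on a log axis. Right, the log2 ratio of the 2 sums, which is highest in KO day 15 (-2.89 to -2.66) and lowest at week 70.

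As counted, the largest differences between the genotypes were in the other kinesins, of which 8 of the 9 tested fell and 0 rose. Kif26b, Kif21b and Kif26a had the lowest values of all kinesin genes in that fit. Kif21b was counted 19817, 20155 and 19252 times in WT, against 4807, 4914 and 4436 times in KO, which gave a log2 fold change of -1.78 (SE 0.0676, adjusted p 2.10e-08 by edgeR). Kif26b and Kif26a, atypical members that bind microtubules without walking, had 2191, 2077 and 2509 counts against 552, 513 and 480, and 3762, 3522 and 3313 against 917, 971 and 707. Their log2 fold changes were -1.85 and -1.74 (edgeR adjusted p 1.07e-07 and 1.44e-07). Kif13a, an endosome motor, had 1355, 1238 and 1229 counts against 463, 456 and 348, a log2 fold change of -1.31 (SE 0.0993, adjusted p 1.20e-06 by edgeR). None of these 4 overlapped between the groups. With length and GC corrected these 4 remained called lower, at -0.72, -1.07, -0.49 and -0.53 in the order named. In that fit 5 of the 9 other kinesins fell and 1 rose. The mitotic Kif18b (-0.87) and the axonal transport gene Kif1b (-0.80) then lay below Kif21b, Kif26a and Kif13a.

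Among the rest of the other kinesins, Kif1c (-0.81) and Kifc3 (-0.80) fell in edgeR, but not with length and GC corrected (0.07 and -0.04). Kif2a, a depolymerase that limits axon branches and also acts at spindle poles, fell by 0.23 on the log2 scale as counted (edgeR adjusted p 0.0167) and by 0.64 in the corrected fit. As counted, its call was lost without KO replicate 1 (-0.19, edgeR adjusted p 0.0515) and with upper-quartile scaling (-0.06). Kif16b, a motor of early endosomes, fell with -0.39 (edgeR adjusted p 0.0211), a call lost without WT replicate 1 (-0.30), KO replicate 2 (-0.37) or KO replicate 3 (-0.39), where edgeR gave adjusted p of 0.0688, 0.0736 and 0.0504. It was lost with upper-quartile scaling (-0.22) and with length and GC corrected (-0.06, edgeR adjusted p 0.737) too. Kifc2, a minus-end motor of neurons, was counted 1064, 996 and 1249 times in WT, against 1157, 1192 and 927 times in KO. Its log2 fold change of 0.27 did not pass (SE 0.112, adjusted p 0.0587 by edgeR), and edgeR called it at 0.38 without WT replicate 3 (adjusted p 0.0105), at 0.38 without KO replicate 3 (adjusted p 0.0121) and at 0.98 in the corrected fit (adjusted p 7.48e-06). It was called at 0.44 with upper-quartile scaling (edgeR adjusted p 0.00568), at 0.29 without haemoglobin and mitochondrially encoded genes (edgeR adjusted p 0.0476) and at 0.26 by DESeq2 (adjusted p 0.0377).

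Of the 7 kinesins of cilia, 2 fell at day 15 and 5 did not pass, with a median log2 fold change of -0.12. Kif7, which acts on Hedgehog signalling at the cilium tip, was counted 340, 283 and 274 times in WT, against 89, 130 and 131 times in KO, which gave a log2 fold change of -1.07 (SE 0.147, adjusted p 9.56e-05 by edgeR). Kif19a, which controls cilium length, had 78, 55 and 46 counts against 28, 30 and 21, a log2 fold change of -0.88 (SE 0.252, adjusted p 0.0107 by edgeR). Neither passed with length and GC corrected (-0.13 and -0.08). Kif17, a motor of cilia and dendrites, had 86, 68 and 78 counts against 52, 64 and 53, and Kif9, of motile cilia, 102, 88 and 110 against 87, 93 and 93. Both overlapped between the groups, and their log2 fold changes were -0.17 and 0.15 (edgeR adjusted p 0.421 and 0.439). In the corrected fit Kif17 was called higher at 0.62 (edgeR adjusted p 0.0128) and Kif27 at 0.40 (adjusted p 0.0298). Of the 5 markers of ependyma and motile cilia, 3 were tested and 2 fell, with sums of 26.3 to 31.3 CPM in WT and 9.73 to 12.2 CPM in KO, and their part in these values was not tested.

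Motors need adaptors and a counterpart for the way back. Of 15 kinesin light chains and cargo adaptors, 11 fell and 2 rose in KO at day 15 in edgeR, with a median log2 fold change of -0.62, and 3 fell and 3 rose with length and GC corrected (median -0.01). The 3 with the smallest adjusted p were the scaffold Mapk8ip2 (-1.28), Trak1, which links kinesin to mitochondria (-0.92), and the light chain Klc2 (-0.76), which were at -0.45, -0.03 and 0.00 after correction. Of 14 genes of dynein and dynactin, 7 fell and 3 rose, with a median of -0.22. The heavy chain Dync1h1 fell from 1082 ± 7.62 to 301 ± 10.1 CPM (SD, n = 3 each; edgeR log2 fold change -1.76, and -0.96 corrected), the dynactin subunit Dctn1 changed by -1.17 (-0.32 corrected) and the light chain Dynll1 was higher by 1.06 on the log2 scale (0.92 corrected).

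Age was compared in KO, with week 70 against day 15, over 20000 genes in edgeR. Age cannot be told apart from any difference in preparation. Of the 38 kinesin genes tested, 19 fell and 15 rose from day 15 to week 70, and 4 did not pass. Over all genes, 82.0% were called, with 44.4% lower and 37.6% higher, with a median log2 fold change of -0.19, which was -0.44 with upper-quartile scaling. The libraries of the 2 ages did not overlap in CPM for 16 kinesin genes that were higher and 19 that were lower at week 70, against 42.2% and 45.5% of all genes. With length and GC corrected, 15 rose and 19 fell, against 40.8% and 37.6% of all genes (78.5% called). Fold changes by age moved with GC content and length too. Over the 38 kinesin genes Spearman's rho was 0.39 with GC content and 0.21 with length, beside 0.28 and 0.20 over 19896 genes. After correction the values were 0.27 and 0.26, beside 0.03 and 0.03. The comparison by age shares the KO day 15 libraries with that of the genotypes, so that a gene measured low in them would read low in one and high in the other.

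All 12 mitotic kinesins fell with age, with a median log2 fold change of -5.41, or -5.16 with Kif18b at its bound. Kif11 was counted 1117, 1229 and 1132 times at day 15 and then 29 and 28 times at week 70, with a log2 fold change of -5.22 (SE 0.133, adjusted p 1.86e-10 by edgeR), a 37.3-fold lower level. Kif15 had 660, 790 and 813 counts against 14 and 9 (-5.90, edgeR SE 0.200, adjusted p 1.16e-09), and Kif23 had 498, 524 and 600 against 5 and 9 (-6.13, edgeR SE 0.245, adjusted p 3.66e-09). Kif20b had 501, 631 and 625 counts against 7 and 15 (-5.60, edgeR SE 0.249, adjusted p 7.83e-09). The mean levels of these 4 genes at week 70 ran from 0.470 CPM for Kif23 to 1.89 CPM for Kif11. Kif18b had 0 counts in both, which makes it at least 34.1-fold lower against a floor of 3 counts per library. Kif14 had 2 counts in all at week 70 and 483 at day 15, a 139-fold lower level with a 95% counting interval of 38.2 to 1149. Kif2c had 4 and 1 counts at week 70 (log2 fold change -6.40).

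The mitotic kinesins that kept most counts at week 70 were Kif22 with 38 and 33, Kif4 with 36 and 25 and Kifc1 with 29 and 38. Their log2 fold changes were -3.43, -3.05 and -2.56 (edgeR adjusted p 1.51e-08, 3.19e-07 and 1.24e-06). Kif18a and Kif20a lay between, at -3.83 and -4.06. All 12 calls were made with length and GC corrected as well, where the median was -4.67. Beside them, the 6 markers of cycling cells all fell as counted, from sums of 388 to 395 CPM to sums of 51.6 to 54.6 CPM. With length and GC corrected 5 of the 6 fell, and Pcna did not pass (0.12, edgeR adjusted p 0.266). Most of the week 70 sum was Pcna, at 42.7 ± 2.69 CPM (SD, n = 2). Of the spindle and midbody partners 12 fell and 1 rose, with a median of -4.36 (13 and 1 with length and GC corrected). Cenpe, the kinetochore kinesin whose symbol lies outside the pattern, changed by -5.81 and Prc1, which bundles the central spindle, by -4.74. The partner that rose was Anln, for anillin, at 2.47, which is also known from myelin. Oligodendrocyte markers rose at the same time, 6 of 6, to sums of 13002 to 13335 CPM from sums of 76.3 to 82.4 CPM. The part of cell composition in the values by age of Anln and of the mitotic kinesins was not tested.

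Of the 10 axonal transport kinesins, 8 rose with age, 1 fell and 1 did not pass, with a median log2 fold change of 1.55. Kif5a, the heavy chain of conventional kinesin that is specific to neurons, was counted 3676, 3824 and 3291 times at day 15 and then 154524 and 109986 times at week 70. Its log2 fold change was 5.31 (SE 0.151, adjusted p 3.70e-10 by edgeR), a 39.7-fold higher level, and 4.58 with length and GC corrected. Kif1a had 5224, 5177 and 4471 counts against 28518 and 26600, a log2 fold change of 2.59 (SE 0.104, adjusted p 3.86e-09 by edgeR). Kif13b had 476, 484 and 506 counts against 1634 and 1664 (1.87, edgeR SE 0.0872, adjusted p 1.10e-08), and Kif5c had 6639, 6906 and 5770 against 30833 and 23766 (2.20, edgeR SE 0.120, adjusted p 3.69e-08). In each of these 4 genes both aged libraries were above all KO day 15 libraries.

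Kif5b, Kif1b and Kif3c rose as well, with log2 fold changes of 1.61, 1.49 and 0.95 (edgeR adjusted p 5.36e-08, 6.25e-08 and 1.79e-06), and Kif21a by 0.36 (edgeR adjusted p 0.00224), a call lost with upper-quartile scaling (0.11). For Kif1b, Kif3c and Kif21a the aged KO level lay near that of fetal WT brain. Mean CPM in fetal WT, fetal KO and aged KO was 941, 348 and 1042 for Kif1b and 216, 116 and 239 for Kif3c. For Kif21a it was 250, 198 and 272, whereas Kif5b, at 192, 206 and 672, rose above both fetal groups. Kif3a fell by 0.53 on the log2 scale (SE 0.117, adjusted p 0.00163 by edgeR), from 167 ± 5.28 CPM (SD, n = 3) to 124 ± 26.1 CPM (SD, n = 2). Kif3b, its partner, did not pass (0.18, edgeR SE 0.0925, adjusted p 0.0894), with a sign that turned with upper-quartile scaling (-0.07). Beside these, all 7 markers of mature neurons rose, to sums of 13651 to 14567 CPM from 543 to 563 CPM, and all 5 of immature neurons fell. The part of cell composition in the axonal transport values was not tested. The light chains and adaptors rose in 15 of 15 genes, with a median of 1.58. With length and GC corrected 14 rose and 1 fell, with a median of 0.80, and the gene that fell was the light chain Klc4 (-0.46, edgeR adjusted p 0.00212, against 0.29 as counted). The 3 with the smallest adjusted p as counted were Klc2 (2.65), Mapk8ip2 (2.53) and Kifbp, a binding protein of kinesins (2.31). Of dynein and dynactin 9 rose and 1 fell (11 and 1 with length and GC corrected), and Dync1i1, Dctn1 and Ndel1 had the smallest adjusted p in edgeR (log2 fold changes 2.71, 1.99 and 1.40).

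The 3 genes for the heavy chain of conventional kinesin changed places. Their merged exons have similar lengths of 6990 bases in Kif5a, 7981 in Kif5b and 7142 in Kif5c. Kif5c held 56.7, 58.3 and 57.6% of the Kif5 counts in fetal WT brain, 48.7, 47.5 and 45.2% in fetal KO brain, and 15.7 and 16.6% in aged KO brain. Kif5a held 28.7, 27.8 and 29.5%, then 27.0, 26.3 and 25.8%, and 78.7 and 76.9% at week 70. The share of Kif5b was 14.7, 13.9 and 12.9% in fetal WT, 24.3, 26.1 and 29.1% in fetal KO, and 5.59 and 6.50% in aged KO brain. For each of the 3 genes the 3 groups did not overlap. So by counts Kif5c was most of the conventional kinesin in fetal WT brain and the largest of 3 shares in fetal KO brain. Kif5b held a larger part in fetal KO than in fetal WT, and aged KO brain had mostly Kif5a. These shares need no scaling between libraries, and they were not corrected for GC content, which is 53.8% in Kif5a, 41.1% in Kif5b and 47.5% in Kif5c.

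**Figure D5:**
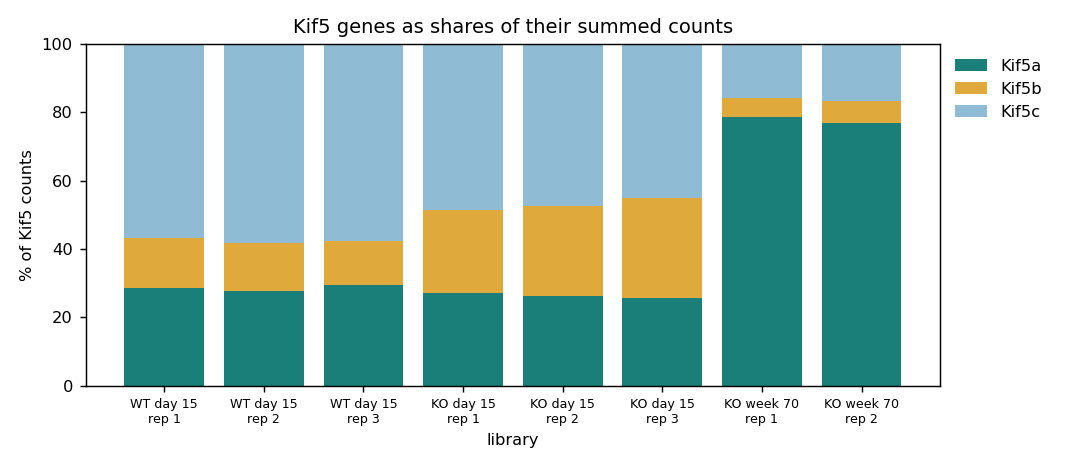
Shares of Kif5a, Kif5b and Kif5c in their summed counts, as stacked bars from 0 to 100% for the 8 libraries. Kif5c holds the largest share in all fetal libraries (45.2 to 58.3%) and Kif5a in both week 70 libraries (76.9 and 78.7%).

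Among the other kinesins tested, 5 rose and 4 fell with age. Kifc2 was counted 1157, 1192 and 927 times at day 15 and then 14978 and 12963 times at week 70, a log2 fold change of 3.79 (SE 0.121, adjusted p 7.56e-10 by edgeR) and a 13.9-fold higher level. Kif1c, a motor that moves integrins and dense vesicles, had 644, 656 and 532 counts against 4707 and 4382 (3.01, edgeR SE 0.104, adjusted p 1.27e-09). Kifc3, which acts at cell junctions, had 217, 283 and 228 counts against 857 and 808 (1.90, edgeR SE 0.112, adjusted p 6.93e-08). None of the 3 overlapped between the ages. Kif13a (1.36) and Kif16b (1.03) rose too. Mean CPM in fetal WT, fetal KO and aged KO was 63.6, 24.2 and 66.5 for Kif13a, and 12.1, 8.71 and 19.0 for Kif16b. Kif21b had 4807, 4914 and 4436 counts against 2131 and 1719, a log2 fold change of -1.18 (SE 0.103, adjusted p 1.60e-06 by edgeR), and Kif26a (-1.66), Kif26b (-1.16) and Kif2a (-0.73) fell as well. The fall of Kif2a turned to a rise of 0.31 with length and GC corrected (edgeR adjusted p 0.00311). The low genes Kif12 and Kif28 had at most 2 and 5 counts in any library, and Kif19b had 3 to 4 counts in fetal WT, 6 to 10 in fetal KO and 0 in aged KO brain. These 3 were tested in neither comparison.

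Of the kinesins of cilia, 2 rose and 2 fell with age. Kif17 was counted 52, 64 and 53 times at day 15 and then 491 and 474 times at week 70, a log2 fold change of 3.21 (SE 0.147, adjusted p 9.81e-09 by edgeR). Kif19a had 28, 30 and 21 counts against 68 and 97 (1.77, edgeR SE 0.305, adjusted p 0.000328), a call lost with length and GC corrected (0.65, adjusted p 0.0575). Kif24, which restrains cilium formation and is made in cycling cells, had 144, 211 and 239 counts against 24 and 18 (-3.11, edgeR SE 0.291, adjusted p 2.77e-06). Kif7 had 89, 130 and 131 counts against 36 and 53 (-1.26, edgeR SE 0.282, adjusted p 0.00181). Kif6, Kif9 and Kif27 did not pass, with values of 0.37, 0.17 (-0.08 with upper-quartile scaling) and -0.50, and Kif27 was called lower at -0.75 with upper-quartile scaling, at -0.72 with length and GC corrected and at -1.01 without week 70 replicate 1 (edgeR adjusted p 0.0207, 0.0337 and 0.00112). Of the 5 ependyma and motile cilia markers 4 rose, from sums of 9.73 to 12.2 CPM to sums of 25.9 to 43.5 CPM.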

How the data were processed

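The authors deposited raw read counts per Ensembl gene for 8 libraries. The submitters' processing notes name FastQC, cutadapt, Trimmomatic, HISAT2, featureCounts and edgeR, and the builds GRCm38 and GRCm39. Their settings, strandedness and the treatment of multiply mapping reads are not given in the sources used here, so that Kifc1, with a close copy, and Kif16b, with an antisense gene, are uncertain. Of the 34299 genes, 351 had no name and kept their identifiers.

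Genes were kept by filterByExpr, scaled by TMM and tested with edgeR 4.0.16 in R 4.3.3 (quasi-likelihood F-test, Benjamini-Hochberg over all genes, threshold 0.05), with the 6 fetal libraries for genotype and the 5 KO libraries for age. The SE is the one implied by the F statistic. Lengths and GC content came from GENCODE M 21 on GRCm38, which matched 97.3% of the genes and is used for these properties only. For the correction, each library's deviation was smoothed on both by mgcv 1.9.3 and became an offset. Promoters came from RefSeq on GRCm38.p6, with the coordinates of that build.

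The kinesin genes, classes and gene lists were chosen with earlier results of these data known. Kif19b was in no class list and was put with the others. All mitotic and axonal transport genes are named, and of the others those past the threshold in either comparison. Counts in every library are printed for the 4 genes with the smallest adjusted p per class and comparison. Other counts, and Kif6, Kif9 and Kif27, which passed in neither comparison as counted, were added after their values were seen. For each partner list the 3 genes with the smallest adjusted p are named. Replicates of a group differed by more than sampling noise (chi-square per gene at least 3.20). Scripts were tested on simulated data. Alternatives were RLE and upper-quartile scaling, 2 filters, DESeq2 1.42.0, all 8 libraries in 1 fit, the replicate number as a block, the correction, removal of haemoglobin and mitochondrially encoded genes, each library left out, wide classes and equal weights.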

Additional observations from a re-analysis of the deposited data

How the results depend on the processing

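Depth limits the mitotic genes at week 70, where 3 counts correspond to 0.193 and 0.206 CPM, and the genes of cilia; 2 or 3 libraries a group limit the rest. For age, no count of calls over the mitotic, the axonal transport or all kinesin genes moved by over 1.5 times under any alternative run. Genes of cilia called by age were 1 higher and 3 lower with length and GC corrected, against 2 and 2. For genotype, mitotic genes called higher were 1 with length and GC corrected, with or without the replicate block. Axonal transport genes called higher were 2 with upper-quartile scaling and 0 with no filter, with all 8 libraries in 1 fit, and with the correction, with or without the block. Those called lower were 3 with the correction, with or without the block. Kinesin genes called higher were 5 with upper-quartile scaling. With 1 library left out, axonal transport genes called higher ranged from 0 to 1 (0 without WT replicate 3 or KO replicate 2) and called lower from 8 to 8. The difference in the log2 ratio of the classes between the genotypes ranged from 0.51 to 0.71 with 1 library left out and was 0.28 with equal weights. By age it was -4.91 with wide classes (Kif2a and Kif24 added to the mitotic, Kif1c, Kif13a, Kif16b, Kif17, Kif21b and Kifc2 to the axonal transport genes) and -5.14 with equal weights. Correlations of deviations between libraries of the same replicate number were -0.16, -0.18 and -0.17 for genotype, and 0.04 and 0.01 for age. For genotype, libraries of different numbers gave 0.07 to 0.11. The deviations were centred within groups of 2 or 3 libraries, which ties these correlations to each other. They therefore cannot settle whether the numbers pair the samples. The replicate block alone changed no kinesin call, with 11184 genes called for genotype and 14876 for age.

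Log2 fold changes turned in sign as follows, and the cause was not tested. For genotype with length and GC corrected, and then with the replicate block as well, they were 0.0958 and 0.0940 for Kif3b, 0.62 and 0.62 for Kif17, 0.40 and 0.38 for Kif24, 0.0712 and 0.0704 for Kif13b, -0.0879 and -0.0850 for Kif15, 0.00695 and 0.00791 for Kif3a, 0.0714 and 0.0726 for Kif1c, and 0.15 and 0.15 for Kif21a. With upper-quartile scaling they were 3.21e-06 for Kif17, 0.0514 for Kif24, 0.17 for Kif3a and 0.0120 for Kif11. With no filter Kif15 was at -0.0432 and Kif27 at -0.0665, and Kif27 was at -0.0157 with all 8 libraries. Kif3a was at 0.00920 with a mean of at least 10 counts and at 0.0209 without haemoglobin and mitochondrially encoded genes. For age, Kif3b was at -0.0665 and Kif9 at -0.0836 with upper-quartile scaling. With the correction, and then the block as well, Kif3b was at -0.12 and -0.18 and Kif2a at 0.31 and 0.32, and Kif6 was at -0.0740 with both. With 1 library left out, genotype values ranged from -0.0494 to 0.0967 for Kif15, from -0.281 to 0.0268 for Kif24, from -0.0569 to 0.137 for Kif27 and from -0.0582 to 0.0204 for Kif3a, and age values from -0.116 to 0.422 for Kif9.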

Other observations

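3 further genes encode kinesins or kinesin-like motors whose symbols the pattern does not match, or a close copy of one. Cenpe, the kinetochore motor, was counted 1165, 1003 and 843 times in fetal WT, 630, 751 and 832 times in fetal KO and 12 and 12 times in aged KO brain. Its log2 fold change between the genotypes did not pass (-0.16, edgeR SE 0.107, adjusted p 0.226), like that of Kif11. Kifc5b, the copy of Kifc1, was counted 312, 301 and 294 times in fetal WT, 166, 154 and 192 times in fetal KO and 27 and 33 times in aged KO brain, and its log2 fold changes were -0.54 for genotype and -2.39 for age, beside -0.75 and -2.56 for Kifc1. Stard9, a motor of the centrosome, was counted 1141, 875 and 902 times in fetal WT, 1136, 1209 and 1172 times in fetal KO and 234 and 308 times in aged KO brain. It rose in KO at day 15 (0.56, edgeR SE 0.0729, adjusted p 6.71e-05) and fell with age (-1.99, edgeR SE 0.131).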
